A study of Mus musculus with 4 samples.

Results

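The collagen genes of the mouse and the genes of the enzymes that modify collagen were followed on 4 arrays of cells from lymph nodes that drain tumours. Members were the probe sets with 1 platform gene symbol that names a collagen chain (Col, a number, the letter a and a number), together with the lysyl oxidases, the prolyl 4-hydroxylase and lysyl hydroxylase genes and Pcolce. This gave 101 probe sets of 53 genes, 42 collagen and 11 enzyme or enhancer genes, of 45037 probe sets and 18193 genes in all. Each gene is given by its brightest probe set over the 4 arrays. Loxl2 has no value here, since its 2 probe sets also carry another gene's name, and the chaperone gene Serpinh1 is counted with the other genes of the pathway. Values are log2 signals after quantile normalization, so a difference of 1 is a 2-fold difference in signal.

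The metastatic group consisted of 2 preparations from nodes that drained tumours of 293-VEGF-D cells, a human kidney line made to overexpress VEGF-D. The non-metastatic group consisted of 2 preparations from nodes that drained tumours of 293-Apex cells, without VEGF-D. All mice were female SCID/NOD animals aged 6 to 8 weeks, which lack normal lymphocytes. The axillary node was taken 3 to 4 weeks after injection, at a tumour volume of 1600 to 2500 mm3, and each preparation pooled nodes of 1 to 5 mice. All cells were grown for a short time in endothelial medium and then selected with beads for podoplanin, which lymphatic endothelium and the fibroblastic reticular cells of nodes both carry. By the sorting label, tumour cells and leukocytes were removed before culture in the metastatic preparations and not in the non-metastatic ones, while the growth protocol describes the removal without separating the groups. Nodes of the metastatic group were used only if visibly enlarged. Depletion, node enlargement and VEGF-D itself cannot be told apart from the metastatic state.

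Collagens are triple helices of 3 chains that cells secrete into the matrix. The fibrillar types form the cables of connective tissue and of the reticular fibres that scaffold a lymph node, type IV forms the sheets of basement membranes, and type VI forms beaded filaments. In the endoplasmic reticulum prolyl 4-hydroxylases and lysyl hydroxylases, which need oxygen, iron and 2-oxoglutarate, modify the chains, and after secretion lysyl oxidases start the cross-links between them. Lymph node reticular cells are known as strong producers of these matrix genes.

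The labels call the cells an enriched endothelial fraction, and defining markers of endothelium were mixed, with 5 of 8 lymphatic and 5 of 10 pan and blood endothelial markers above the median signal of 5.95. Pecam1, a junction protein of endothelial cells, had 4.76 and 4.78 in the metastatic group, against 5.36 and 4.87 in the non-metastatic group, and the lymphatic transcription factor Prox1 had 4.12 and 3.74 against 4.17 and 3.96. Signals under that median are called dim here, which does not show absence. The hyaluronan receptor gene Lyve1 of lymphatic endothelium had 6.32 and 4.23 against 8.26 and 7.80, and Emcn, a sialomucin of endothelium, had 6.50 and 5.66 against 8.77 and 8.45. Eng, a co-receptor of endothelium and other stromal cells, had 9.82 and 10.26 against 10.57 and 10.50. The lower values of these 3 markers in the metastatic group did not pass after adjustment, and their part in the results was not tested. Directions were mixed over the lists. Of the lymphatic markers 3 were higher and 5 lower, and of the pan and blood endothelial markers 4 were higher and 6 lower. Nrp2 of the lymphatic list was among the higher, with 8.13 and 8.66 against 7.43 and 7.93. Podoplanin itself (Pdpn) had 10.89 and 10.83 against 10.35 and 10.35. Of 10 fibroblast and reticular cell markers 9 were above the median, as were 5 of 8 leukocyte markers. Of the leukocyte list, Csf1r had 9.61 and 9.26 against 9.88 and 10.07. Ptprc, the leukocyte marker CD45, was dim on all 4 arrays (4.28 and 4.01 against 4.13 and 4.08). In a population of mixed cells, fewer cells of a type and less RNA per cell cannot be told apart.

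Metastatic replicate 2 stood apart from the other arrays for the hypoxia list, and for some marker genes as well, among them Lyve1 and Cxcl13, a chemokine gene of follicular stroma, which had 9.84 and 7.58 in the metastatic group, against 10.48 and 10.83 in the non-metastatic group. Of 23 measured hypoxia and glycolysis genes, all 23 had their highest value on that array, and the list's mean signal was 9.34 and 10.76 on the metastatic arrays, against 9.33 and 9.37 on the non-metastatic arrays. The 3' minus 5' difference of the Gapdh and Actb control probe sets, a measure of RNA integrity, spanned -0.18 to 0.19 over all arrays. Results that rest on this array are given with and without it.

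Most collagen and collagen-modifying genes had nearly the same signal in both groups. The median difference, metastatic minus non-metastatic, was -0.02 over the 53 members and 0.00 over all genes (-0.001), and 51 of 53 members lay within 0.5 of 0. limma with Benjamini-Hochberg adjustment over all 45037 probe sets called 0 members at 0.05, as it called 0% of all genes, and the smallest adjusted p among members was 0.623. At an unadjusted p under 0.05, 1 member was higher (2.63% of all genes) and 1 was lower (4.08% of all genes). With 2 arrays a group, the smallest p of an exact permutation test is 0.33. The metastatic arrays lay above both non-metastatic ones for 5 members (9.43%, against 17.3% of all genes) and below both for 7 (13.2%, against 17.3% of all genes). No member was at least 2-fold higher (0.242% of all genes) and 1 was at least 2-fold lower (0.704% of all genes). The 95% interval of the difference lay within 1 log2 unit of 0 for 44 members. It did not for Col11a1, Col18a1, Col5a3, Col6a1, Col6a2, Col8a1, P4ha1, P4ha2 and Plod1, so for these a 2-fold difference is inside the interval or the estimate itself is larger.

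**Figure D1:**
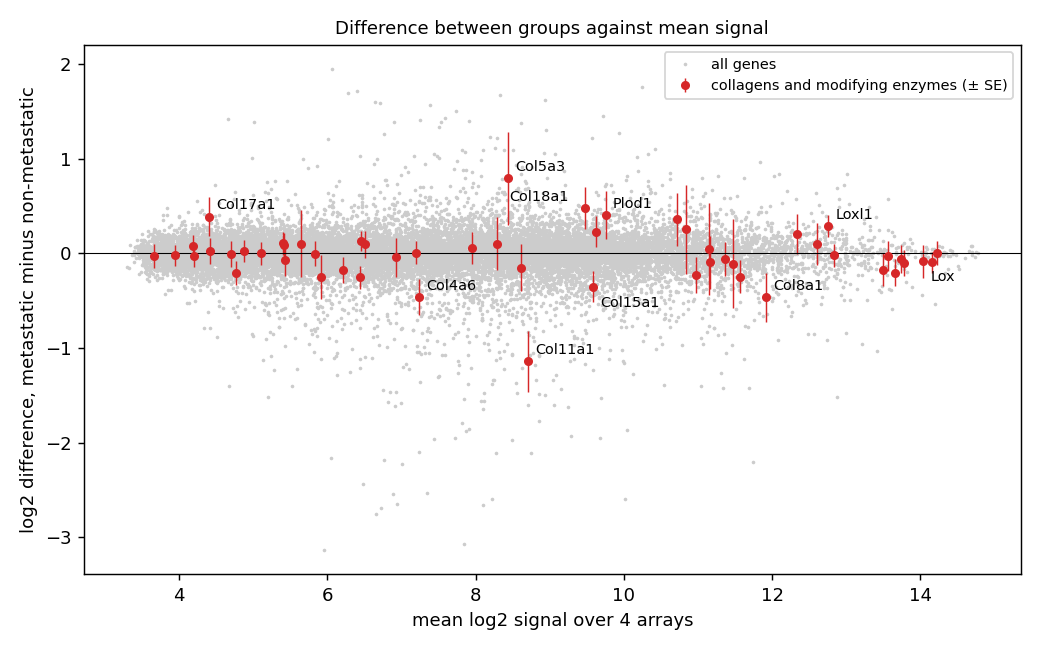
Each point is 1 gene, with its mean log2 signal over 4 arrays on the x axis and its log2 difference, metastatic minus non-metastatic, on the y axis. Grey points are all 18193 genes, and red points are the 53 collagen and collagen-modifying genes with their SE. Most red points lie near 0, and Col11a1 at -1.14 and Col5a3 at 0.79 lie farthest from it.

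The chains of the major fibrils had similar signals in both groups. Col1a1, which encodes the alpha 1 chain of type I collagen, had 13.60 and 13.82 in the metastatic group, against 13.63 and 13.91 in the non-metastatic group, a difference of -0.06 (95% interval -0.43 to 0.31). Col1a2, the partner chain, had 14.13 and 14.32 against 14.14 and 14.30. In both genes the groups overlapped. Col3a1, the chain of the type III collagen of reticular fibres, had 13.71 and 13.40 against 13.81 and 13.71. Its groups were nearly tied and missed overlap only at 13.7129 on metastatic replicate 1 against 13.7145 on non-metastatic replicate 2. The difference of -0.20 (SE 0.14) was smaller than the gap between the metastatic arrays. The other probe set of Col3a1 gave -0.25. The type V chains, which start and limit the width of type I fibrils, differed by -0.02 for both Col5a1 (12.82 and 12.84 against 12.75 and 12.95) and Col5a2 (13.35 and 13.75 against 13.57 and 13.58).

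Col11a1 had the largest difference of the 53. It encodes a chain of type XI collagen, a minor fibrillar collagen related to type V that is best known from cartilage. Its signal was 7.66 and 8.62 on the metastatic arrays, against 9.09 and 9.47 on the non-metastatic arrays. Both metastatic arrays were lower, and replicate 1 was the lower of them by nearly a log2 unit. The difference was -1.14 (SE 0.32, 2.20-fold lower), with a limma p of 0.0131 and an adjusted p of 0.623. The second probe set had 7.32 and 8.43 against 8.93 and 9.41, a difference of -1.29. The difference stood at -0.66 without metastatic replicate 1 and at -1.62 without metastatic replicate 2. Smooth muscle and pericyte markers had lower values on the same arrays, though none passed after adjustment: 8 of 9 were lower and 7 did not overlap, against 17.3% of all genes that lay lower without overlap, and their mean signal was 7.10 and 7.37 in the metastatic group, against 7.79 and 8.07 in the non-metastatic group. Of chondrocyte and osteoblast markers, Comp, a cartilage matrix protein, had 5.98 and 5.58 against 6.71 and 6.27, while 4 of the 6 measured were lower and 2 higher. The part of either cell type in the difference was not tested.

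Col5a3, the third type V chain, was set by 1 array. It had 9.63 and 8.03 in the metastatic group, against 8.19 and 7.88 in the non-metastatic group. Replicate 1 was high and replicate 2 lay between the non-metastatic arrays. The difference was 0.79 (SE 0.49, adjusted p = 0.933 with limma), and it was -0.00 without metastatic replicate 1 (-0.004) and 1.59 without metastatic replicate 2. Among the remaining fibrillar genes, Col2a1, the main chain of cartilage fibrils, had 6.21 and 6.41 against 6.53 and 6.60, a difference of -0.25 (SE 0.12) that was larger than the gap within either group and did not pass. Col27a1 differed by 0.06, and the dim Col11a2 and Col24a1 by 0.09 and -0.03.

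**Figure D2:**
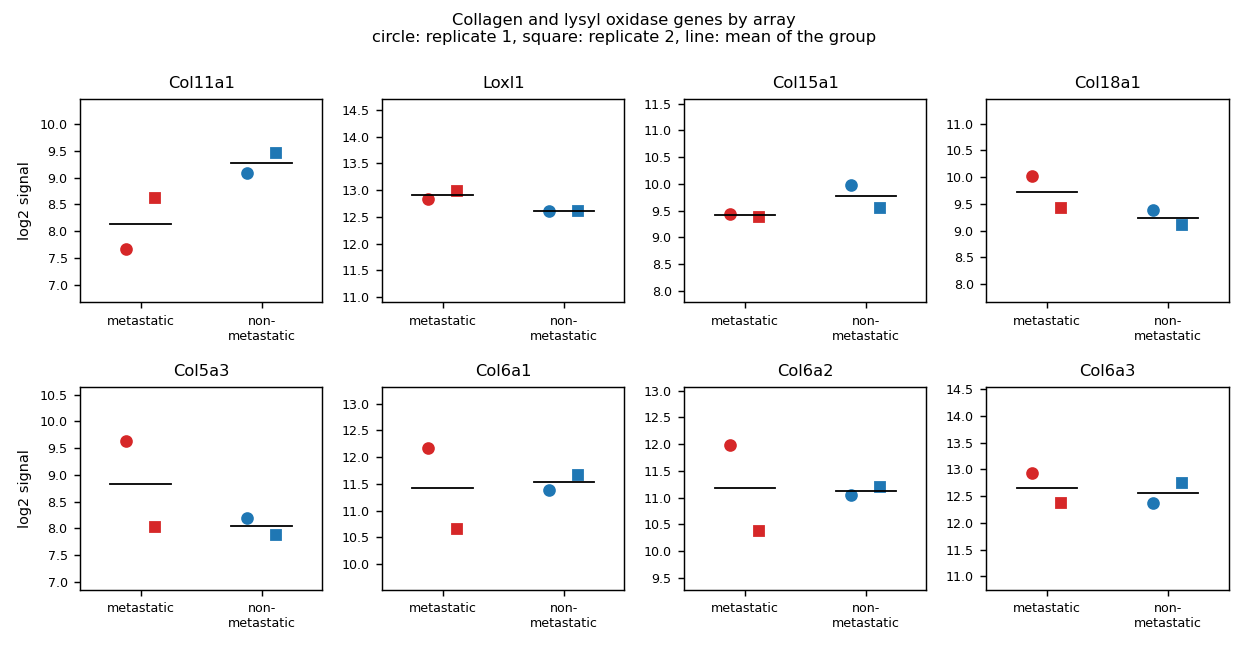
The log2 signal of 7 collagen genes and Loxl1 is shown on each array, with the metastatic group left (red) and the non-metastatic group right (blue), circles for replicate 1, squares for replicate 2 and a line for the group mean, and each panel spans the same range of log2 units. For Col11a1 both metastatic points are below both non-metastatic ones, and for Col6a1 and Col6a2 the metastatic points lie on both sides of the non-metastatic ones.

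Of the basement membrane chains, 5 of 6 had negative differences, from -0.46 to -0.00, and none passed. Col4a1 and Col4a2 encode the 2 chains of the common type IV trimer. Col4a1 had 13.68 and 13.78 in the metastatic group, against 13.70 and 13.96 in the non-metastatic group, and Col4a2 had 13.24 and 13.58 against 13.42 and 13.74. In both genes replicate 2 was the higher array of each group and the groups overlapped. Col4a5 differed by -0.24 (SE 0.17), and Col4a6, its partner in a type IV trimer of smooth muscle and some epithelial basement membranes, had 6.88 and 7.14 against 7.23 and 7.71. The groups did not overlap for Col4a6, whose difference was -0.46 (SE 0.19), with a limma p of 0.0564 and an adjusted p of 0.835. Its second probe set gave -0.71. Its value was -0.22 when non-metastatic replicate 2 was left out and -0.70 when replicate 1 of that group was. Col4a3 and Col4a4, which are known from the kidney glomerulus, were dim and differed by 0.11 and -0.00.

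Type IV genes lie in pairs that start next to each other and are read in opposite directions. Of 7 pairs of neighbouring members in the mouse assembly, with no other protein-coding gene starting between them, 3 were type IV pairs. The promoter windows of Col4a1 and Col4a2 each run from 250 bases before to 50 bases after a RefSeq start. They share 78 bases, and both start sites lie within these. Both windows are shown because they overlap, with the shared bases in capitals and each strand written 5′ to 3′ (RefSeq, GRCm38.p6, Col4a1 at chr8:11312777-11313076 on the minus strand and Col4a2 at chr8:11312555-11312854 on the plus strand).
Col4a1: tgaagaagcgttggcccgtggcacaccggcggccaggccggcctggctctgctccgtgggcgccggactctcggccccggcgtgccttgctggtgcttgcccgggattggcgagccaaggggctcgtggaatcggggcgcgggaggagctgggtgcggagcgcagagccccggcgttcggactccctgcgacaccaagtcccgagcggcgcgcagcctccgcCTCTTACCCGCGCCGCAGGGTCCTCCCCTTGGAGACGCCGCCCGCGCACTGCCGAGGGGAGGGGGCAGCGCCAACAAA
Col4a2: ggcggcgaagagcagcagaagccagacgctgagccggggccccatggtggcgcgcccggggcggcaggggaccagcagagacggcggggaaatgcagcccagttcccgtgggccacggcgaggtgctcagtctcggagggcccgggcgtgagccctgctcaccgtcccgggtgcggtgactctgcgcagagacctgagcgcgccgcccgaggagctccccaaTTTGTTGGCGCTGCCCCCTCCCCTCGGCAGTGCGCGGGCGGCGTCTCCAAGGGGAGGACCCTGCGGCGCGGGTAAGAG
The differences of this pair were -0.10 and -0.17, and those of the pair Col4a5 and Col4a6 were -0.24 and -0.46. Those of the dim pair Col4a3 and Col4a4 were 0.11 and -0.004, and those of Col3a1 and Col5a2 were -0.20 and -0.02. The metastatic gap (replicate 1 minus replicate 2) was -0.10 and -0.34 for Col4a1 and Col4a2, and -0.41 and -0.26 for Col4a5 and Col4a6. By that gap not all pairs ran together: it was -0.11 and 0.28 for Col4a3 and Col4a4, and 0.31 and -0.40 for Col3a1 and Col5a2.

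The type VI genes Col6a1 and Col6a2 differed more between the metastatic preparations than between the groups. Col6a1 had 12.18 and 10.66 in the metastatic group, against 11.39 and 11.66 in the non-metastatic group. Col6a2, its neighbour in the genome, had 11.98 and 10.38 against 11.05 and 11.21. For both genes metastatic replicate 1 was the highest of the 4 arrays and metastatic replicate 2 the lowest, 2.86-fold apart for Col6a1 and 3.03-fold for Col6a2, with a gap of 1.58 for the second probe set of Col6a2. Col6a3, the third chain of the trimer, had 12.93 and 12.38 against 12.36 and 12.74, a smaller metastatic gap in the same direction. The group differences were -0.11 (SE 0.47) for Col6a1, 0.05 (SE 0.49) for Col6a2 and 0.10 (SE 0.23) for Col6a3. The differences of Col6a1 and Col6a2 were -0.87 and -0.75 without metastatic replicate 1, and 0.65 and 0.85 without metastatic replicate 2. Of 4 adipocyte markers 2 were measured, and both were higher on metastatic replicate 1 than on replicate 2. Adipoq had 9.04 and 4.52 in the metastatic group, against 8.40 and 5.66 in the non-metastatic group, and Fabp4 had 12.22 and 10.95 against 11.27 and 11.70. The list mean was 10.63 and 7.74 against 9.84 and 8.68. The part of adipocytes in the type VI values was not tested. Col6a4 and Col6a5 were dim and differed by 0.00 (0.002) and -0.02.

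For both multiplexins, heparan or chondroitin sulfate collagens of basement membrane zones, the groups did not overlap, in opposite directions. Such a lack of overlap was seen for 17.3% of all genes in each direction. Col18a1, whose C-terminal fragment is the angiogenesis inhibitor endostatin, had 10.02 and 9.42 in the metastatic group, against 9.38 and 9.10 in the non-metastatic group. The metastatic arrays were higher, replicate 2 only by a small margin, and the difference was 0.48 (SE 0.22), with a limma p of 0.0782 and an adjusted p of 0.869. The second probe set of Col18a1 gave 0.60. The difference was 0.18 without metastatic replicate 1 and 0.78 without metastatic replicate 2. Col15a1 had 9.44 and 9.39 against 9.98 and 9.55, a difference of -0.35 (SE 0.16), with a limma p of 0.0778 and an adjusted p of 0.869. The metastatic arrays were close to each other, and the difference was -0.14 when non-metastatic replicate 1 was left out and -0.56 when replicate 2 of that group was.

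Col8a1, a short-chain collagen of vessel walls and of the basement membrane of the corneal endothelium, had 11.39 and 11.99 in the metastatic group, against 11.89 and 12.41 in the non-metastatic group. The groups overlapped, and all 3 of its probe sets were lower on average (-0.47, -0.42 and -0.33), with -0.17 for the first of them when metastatic replicate 1 was left out. Of the collagens that sit on the surface of fibrils, Col12a1 differed by -0.23 (SE 0.19), Col16a1 by 0.23 (SE 0.17) and Col14a1, which was dim, by -0.25 (SE 0.23). The 9 genes of that class had 5 positive and 4 negative differences and a median of 0.03. Col7a1, the collagen of anchoring fibrils, had 8.07 and 8.60 against 7.87 and 8.59, with replicate 2 higher in each group. Col19a1 had 5.36 and 6.03 against 5.13 and 6.05, the widest gap between the non-metastatic arrays among members, and it was dim. Col17a1, a transmembrane collagen of hemidesmosomes, had 4.88 and 4.32 against 4.11 and 4.31, and was likewise dim.

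In all 16 of the 42 collagens were dim, with mean signals between 3.67 and 5.92 (Col9a2, Col10a1, Col11a2, Col13a1, Col14a1, Col17a1, Col19a1, Col22a1, Col23a1, Col24a1, Col26a1, Col4a3, Col4a4, Col6a4, Col6a5 and Col8a2). Their differences ran from -0.25 to 0.39. The other 26 collagens and all 11 enzyme and enhancer genes were above the median. Levels are not set against each other between genes, since probe sets bind with different strength.

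**Figure D3:**
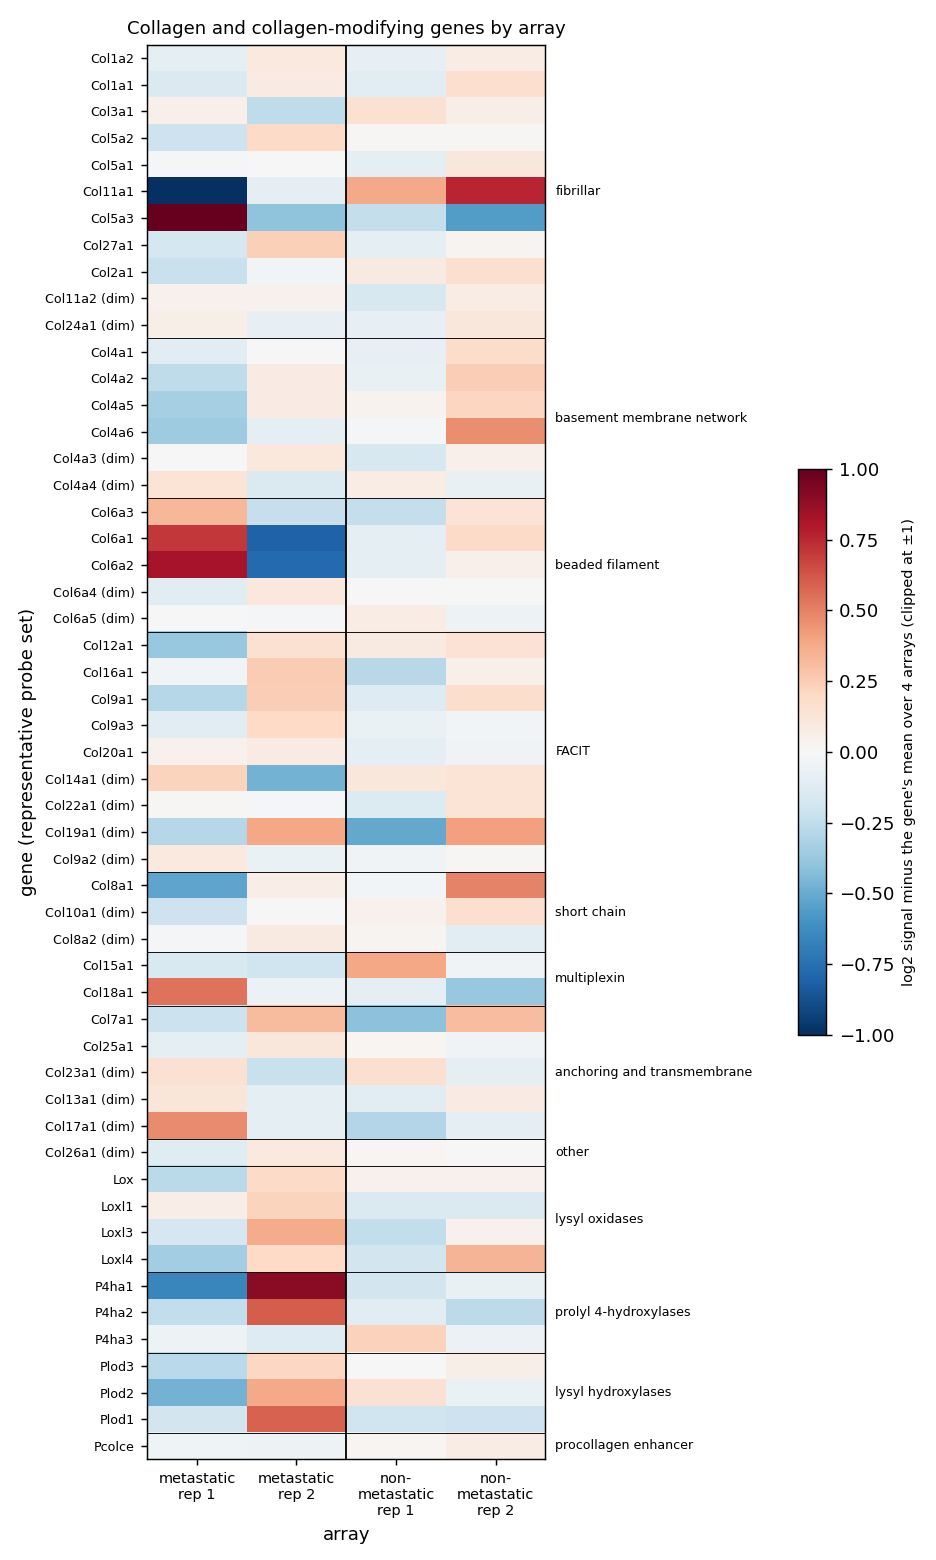
Each row is 1 of the 53 genes, grouped by class, and each column 1 array, with the metastatic arrays left. Colour gives the log2 signal minus that gene's mean over the 4 arrays, clipped at 1 unit either way. Col5a3, Col6a1 and Col6a2 are high and Col11a1 is low on metastatic replicate 1, P4ha1, P4ha2 and Plod1 are high on metastatic replicate 2, and Col11a1 is high on non-metastatic replicate 2.

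The lysyl oxidases oxidise lysines of collagen and elastin. Lox had 13.77 and 14.23 in the metastatic group, against 14.08 and 14.09 in the non-metastatic group, with a difference of -0.08 (95% interval -0.51 to 0.34). Loxl1, which is needed for elastic fibres, had 12.83 and 12.98 against 12.62 and 12.62. Both metastatic arrays were higher and the difference exceeded the gap within either group, at 0.29 (SE 0.11, 1.22-fold higher), with a limma p of 0.0478 and an adjusted p of 0.816. Its second probe set gave 0.23. The difference ranged from 0.21 to 0.36 with each array left out in turn. Loxl3 had 12.17 and 12.72 against 12.10 and 12.39, and Loxl4 had 8.27 and 8.81 against 8.43 and 8.95. In both genes replicate 2 was the higher array of each group, and the groups overlapped. The 2 probe sets of Loxl4 went in opposite directions, -0.15 and 0.21.

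Of the 6 hydroxylase genes, all but P4ha3 had their highest value on metastatic replicate 2. P4ha1, a catalytic subunit of prolyl 4-hydroxylase, had 10.19 and 11.74 in the metastatic group, against 10.65 and 10.76 in the non-metastatic group, and its second probe set had 9.27 and 10.75 against 9.27 and 9.36. P4ha2, the second such subunit, had 10.47 and 11.32 against 10.61 and 10.46. Plod1, a lysyl hydroxylase of helix lysines, had 9.57 and 10.34 against 9.56 and 9.54. In P4ha1, P4ha2 and Plod1 replicate 2 of the metastatic group exceeded all other arrays, while replicate 1 was below both non-metastatic arrays for P4ha1, between them for P4ha2 and just above them for Plod1. Plod2, which hydroxylates the telopeptide lysines used for stable cross-links, had 10.69 and 11.53 against 11.31 and 11.09. Plod3, which also adds sugars to hydroxylysine, had 11.10 and 11.58 against 11.37 and 11.42, and P4ha3 had 6.17 and 6.08 against 6.45 and 6.16, with its lowest value on metastatic replicate 2.

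The group differences of P4ha1, P4ha2, Plod1 and Plod2 were smaller than the gap between the metastatic arrays. They were 0.25 (SE 0.47) for P4ha1, 0.36 (SE 0.28) for P4ha2, 0.41 (SE 0.25) for Plod1 and -0.09 (SE 0.28) for Plod2. Plod3 differed by -0.06 (SE 0.18). P4ha3 differed by -0.18 (SE 0.14), more than its metastatic gap of 0.08 and less than its non-metastatic gap of 0.29, and its groups overlapped. For the first 4 genes, without metastatic replicate 1 the differences were 1.03, 0.79, 0.79 and 0.33, and without metastatic replicate 2 they were -0.52, -0.07, 0.02 and -0.52. The same array was high for Bnip3, whose product sits on mitochondria and which low oxygen induces, at 9.92 and 12.35 against 9.29 and 9.45, and for Pfkl, a glycolytic phosphofructokinase, at 9.20 and 11.68 against 8.99 and 8.99. The growth factor Vegfa had 8.92 and 9.80 against 8.58 and 8.55, and the histone demethylase Kdm3a had 8.62 and 9.50 against 8.33 and 8.30. P4ha1, P4ha2, Plod1 and Plod2 are known targets of the hypoxia-inducible factor in other cells. The part of oxygen in these preparations was not tested.

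**Figure D4:**
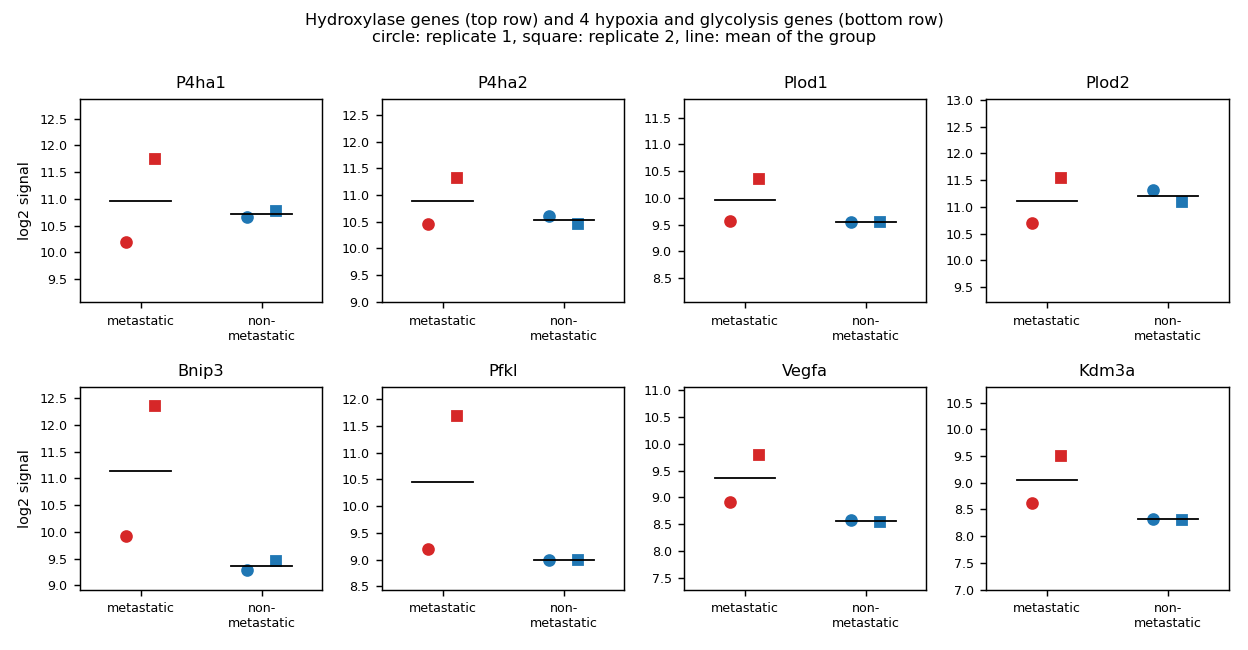
The log2 signal of 4 hydroxylase genes (top) and 4 genes of the hypoxia and glycolysis list (bottom) on each array, with the metastatic group left (red) and the non-metastatic group right (blue), circles for replicate 1, squares for replicate 2 and a line for the group mean. In all 8 panels the square of the metastatic group is the highest point, at 11.74 for P4ha1 and 12.35 for Bnip3.

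The promoter windows of P4ha1, P4ha2 and Plod1 are printed because these genes were high on the same array as the hypoxia genes, and the hypoxia-inducible factor binds a short core written ACGTG or GCGTG. Capitals mark these letters on either strand. Each window runs from 250 bases before to 50 bases after a RefSeq start, 5′ to 3′ (GRCm38.p6, P4ha1 at chr10:59323046-59323345 and P4ha2 at chr11:54100674-54100973 on the plus strand, Plod1 at chr4:147936727-147937026 on the minus strand).
P4ha1: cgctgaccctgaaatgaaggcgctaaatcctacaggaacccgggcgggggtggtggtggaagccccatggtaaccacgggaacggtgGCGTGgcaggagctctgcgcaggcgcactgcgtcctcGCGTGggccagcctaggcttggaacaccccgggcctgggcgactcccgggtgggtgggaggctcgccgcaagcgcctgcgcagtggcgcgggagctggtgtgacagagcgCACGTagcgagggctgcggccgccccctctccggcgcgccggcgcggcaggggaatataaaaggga
P4ha2: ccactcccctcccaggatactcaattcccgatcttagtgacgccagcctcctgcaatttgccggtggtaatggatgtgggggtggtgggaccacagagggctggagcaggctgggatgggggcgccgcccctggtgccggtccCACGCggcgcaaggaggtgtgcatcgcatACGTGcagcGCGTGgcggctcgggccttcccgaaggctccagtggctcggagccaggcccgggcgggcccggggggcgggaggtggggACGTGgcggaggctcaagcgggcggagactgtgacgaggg
Plod1: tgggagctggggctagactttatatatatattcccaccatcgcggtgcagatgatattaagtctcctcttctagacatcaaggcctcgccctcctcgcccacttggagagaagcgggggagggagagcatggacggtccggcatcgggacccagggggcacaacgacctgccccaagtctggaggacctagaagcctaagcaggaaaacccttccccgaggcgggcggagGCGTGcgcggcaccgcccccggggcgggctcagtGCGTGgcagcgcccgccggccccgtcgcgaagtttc
P4ha1 held 1 ACGTG and 2 GCGTG, P4ha2 held 2 of each and Plod1 held 2 GCGTG. Either core stood in 43.8% of all 32851 promoter windows (ACGTG in 19.6% and GCGTG in 32.4%), in 18 of 43 windows of the 40 members that the table lists, and in 25 of 32 windows of the hypoxia and glycolysis genes. A match is a description of letters and not a binding site.

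Pcolce, the protein that speeds removal of the procollagen C-propeptide, had 14.12 and 14.11 in the metastatic group, against 14.18 and 14.24 in the non-metastatic group. The metastatic arrays were lower by a small margin, with a difference of -0.10 (SE 0.11).

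Replicates of the metastatic group were farther apart than those of the non-metastatic group for 36 of 53 members. Of the members, 4 (7.55%) were at least 2-fold apart between the metastatic arrays, namely Col5a3, Col6a1, Col6a2 and P4ha1, against 1.75% of all genes, and 0 between the non-metastatic arrays, against 0.731% of all genes. The median absolute gap was 0.31 between the metastatic arrays and 0.19 between the non-metastatic ones, and over all genes it was 0.18 and 0.11. Metastatic replicate 1 was the lowest array for 23 members and the highest for 10, and metastatic replicate 2 was the highest for 22 and the lowest for 11. The highest and lowest arrays were not counted over all genes, so these counts are not shown to be particular to the members.

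**Figure D5:**
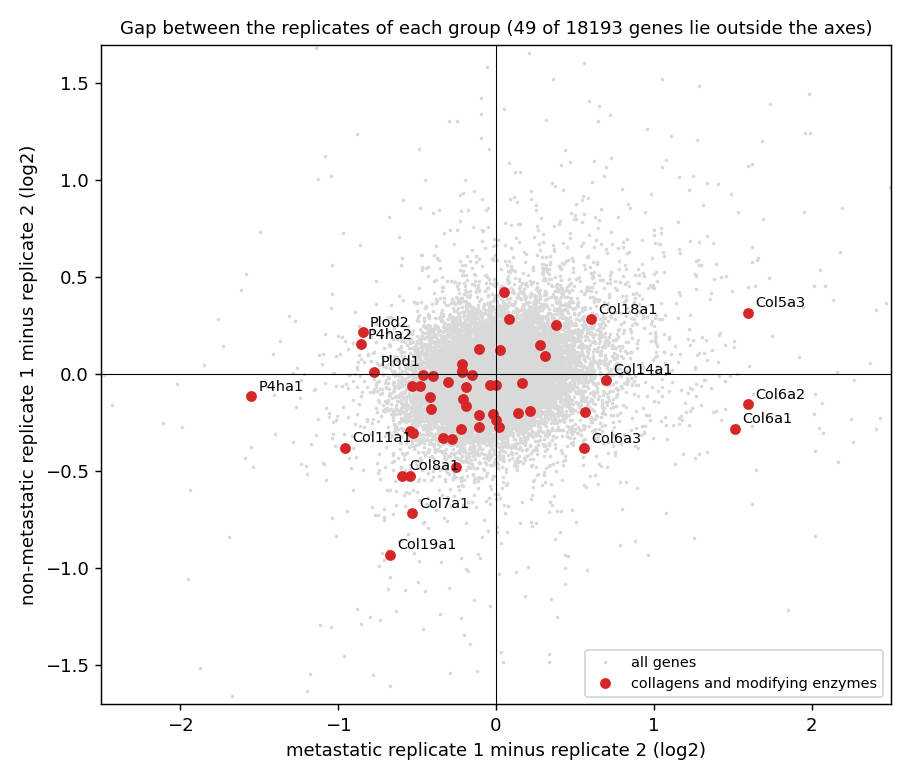
Each point is 1 gene, with the log2 gap between the metastatic replicates (replicate 1 minus replicate 2) on the x axis and that between the non-metastatic replicates on the y axis, in grey for all genes and in red for the 53 members, and 49 genes lie outside the axes. Col5a3, Col6a1 and Col6a2 lie far right (folds of 3.02, 2.86 and 3.03), P4ha1 lies far left (2.93-fold, higher on replicate 2), and the non-metastatic gaps of these 4 are under 0.5 in size.

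The other genes of collagen synthesis likewise had a median difference near 0. Of 26 measured, 15 had positive and 11 negative differences with a median of 0.03. At an unadjusted p under 0.05, 2 were higher (2.63% of all genes) and 0 lower (4.08% of all genes). None passed after adjustment (0% of all genes). Serpinh1, the chaperone of the triple helix, had 13.45 and 13.50 in the metastatic group, against 13.39 and 13.46 in the non-metastatic group. P3h1, a prolyl 3-hydroxylase, had 9.51 and 9.70 against 9.18 and 9.33 (0.35, SE 0.13, adjusted p = 0.773 with limma), and Pepd, which frees proline from collagen fragments, had 10.44 and 10.23 against 10.01 and 10.01 (0.32, SE 0.12, adjusted p = 0.789 with limma). Creb3l1, a transcription factor that drives Col1a1 in bone, had 9.91 and 10.17 against 10.29 and 10.38 (-0.30, SE 0.13).

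Among genes that bind or cut collagen none passed after adjustment, and the median difference was 0.03. Of 16 measured, 9 were higher and 7 lower, with 1 higher (2.63% of all genes) and 3 lower (4.08% of all genes) at an unadjusted p under 0.05. Itga1, the integrin chain that binds type IV collagen, had 5.67 and 5.98 in the metastatic group, against 7.01 and 6.66 in the non-metastatic group (-1.01, SE 0.18, adjusted p = 0.361 with limma). The collagen receptor kinase gene Ddr1 had 10.71 and 10.42 against 11.12 and 11.18 (-0.58, SE 0.14). Mmp14, a membrane collagenase, had 12.05 and 11.62 against 11.08 and 11.37 (0.61, SE 0.18), and the dim neutrophil collagenase gene Mmp8 had 4.61 and 5.26 against 6.06 and 5.77 (-0.98, SE 0.24). In each of these 4 genes, named for the smallest p of the list, the groups did not overlap. Over the 16 measured, 2 lay higher and 4 lower without overlap, against 17.3% of all genes in each direction. Of 15 genes of signals known to move with collagen in fibroblasts, 6 were higher and 9 lower, with a median difference of -0.37. None of them passed after adjustment. At an unadjusted p under 0.05, 2 were higher (2.63% of all genes) and 5 lower (4.08% of all genes). Groups did not overlap for 3 higher and 7 lower genes, against 17.3% of all genes in each direction. Tgfb3 was among the lower, with 8.59 and 8.37 against 9.09 and 9.22 (-0.68, SE 0.13). Tgfb2 had 8.29 and 7.13 against 8.72 and 8.95 (-1.13, SE 0.36). Postn, a matrix protein that binds type I collagen, had 13.61 and 13.26 against 12.64 and 12.54 (0.84, SE 0.15, adjusted p = 0.373 with limma), while the type I chains themselves overlapped.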

How the data were processed

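Total RNA (3 ug) was labelled with biotin and 20 ug of cRNA was fragmented for 1 Affymetrix array per preparation, per the labels' protocols. The authors deposited a log2 signal per probe set. The scale was read from the values (3.10 to 14.87). The software and any normalization behind it were not given in the sources used here. Quantile normalization was applied, since array medians spanned 0.116. Of 45101 probe sets, 64 controls were left out, and 34945 had 1 gene symbol in the platform annotation, updated through Entrez numbers. limma 3.58.1 in R 4.3.3 (lmFit, eBayes) was fitted on 45037 probe sets with 2 residual and 3.72 prior degrees of freedom. The preparations are called biological replicates in the titles. Dim members were kept in the fit. Scripts were tested on simulated data. The members and gene lists were chosen with earlier results of these data known. Per-array values are given for members with an unadjusted p under 0.05, the 10 with the largest difference, the 6 with the widest replicate gap and a set list, and further members are named beside them. Of each other list up to 4 genes with the smallest p were eligible, with a few defining markers. Alternatives were the deposited values, centring, brighter probe sets, averaging over probe sets of a gene, trend and robust moderation, a replicate block and each array left out. The number of arrays limits the precision.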

Additional observations from a re-analysis of the deposited data

How the results depend on the processing

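No member passed limma's adjusted threshold under any alternative. Of 172 differences of 29 members under the 6 alternatives that kept all arrays, 166 kept their direction and side of the threshold and 6 reversed: Col5a1 (0.01 with centring) and, averaging over probe sets of a gene, Col19a1 (-0.16), Col1a2 (-0.011), Col5a2 (0.088), Col6a2 (-0.013) and Loxl4 (0.032). At an unadjusted p under 0.05, 0 members were higher with the deposited values, with brighter probe sets and with averaging, each with 1 other biosynthesis gene. With centring and with averaging 2 members were lower. Counting both directions, 1.89% of members and 6.22% of all genes passed this p with the deposited values, and 2.7% and 7.21% with brighter probe sets. The shares were 3.77% and 6.62% with averaging, and 5.66% and 6.01% with centring. Over all probe sets limma called 0 (2731 at an unadjusted p under 0.05), and 5 with trend and robust moderation. With the replicate block 150 probe sets were called, with 2 members higher and 4 lower at an unadjusted p under 0.05 and 4 other biosynthesis genes. This was 11.3% of members, against 9.58% of all genes. The 2 same-numbered pairs deviated together with a correlation of 0.248 over all probe sets, and the labels state no pairing, so the block is an alternative only. With 1 array left out, 1 residual degree of freedom remained and the lone array was assumed to vary like the other group. Calls over all probe sets then ranged from 0 to 86, the most without metastatic replicate 1. At an unadjusted p under 0.05, 0 to 5 members were higher (5 without either metastatic array) and 1 to 9 lower (9 without metastatic replicate 2), and 1 to 3 other biosynthesis genes passed. In either direction this was 18.9% of members against 10.7% of all genes without metastatic replicate 1, 26.4% against 15.65% without metastatic replicate 2, 5.66% against 3.73% without non-metastatic replicate 1 and 1.89% against 3.81% without non-metastatic replicate 2. Members that did not overlap numbered 9 to 24 higher and 10 to 26 lower, against 28.4% to 38.8% and 28.6% to 40.8% of all genes, as a lone array more often lies outside 2 others. Of members 0 to 1 were at least 2-fold higher (P4ha1 without metastatic replicate 1, Col5a3 without metastatic replicate 2) and 0 to 1 lower (0 without metastatic replicate 1 or non-metastatic replicate 2). Over all genes the shares ranged from 0.335% to 0.621% higher and from 0.77% to 1.066% lower. Of the 29 members, 12 kept their direction without each array and 17 did not, with these ranges: Col19a1 -0.362 to 0.567, Col1a1 -0.199 to 0.083, Col1a2 -0.087 to 0.1, Col4a1 -0.236 to 0.034, Col5a1 -0.119 to 0.084, Col5a2 -0.222 to 0.176, Col5a3 -0.004 to 1.591, Col6a1 -0.865 to 0.651, Col6a2 -0.752 to 0.848, Col6a3 -0.179 to 0.379, Lox -0.314 to 0.148, Loxl3 -0.066 to 0.476, Loxl4 -0.422 to 0.121, P4ha1 -0.522 to 1.03, P4ha2 -0.069 to 0.789, Plod2 -0.516 to 0.329, Plod3 -0.298 to 0.182. The cause of these changes was not tested.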
